A study of Ovis aries with 15 samples.

Results

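The 9 genes described here encode proteins that carry, store and sense iron in the mammary gland of the ewe: TF, TFRC, FTH1, FTL, ACO1, IREB2, HMOX1, CP and HEPH. They were taken by symbol from a table of 24691 features, and all 9 were found. The RNA came from needle biopsies of mammary parenchyma of Romney ewes, taken in late pregnancy (day 135 of gestation, SD 2.4) and in lactation (day 15 post partum, SD 1.27). RNA of several ewes was pooled for each library, and there were 9 libraries of late pregnancy and 6 of lactation. All the ewes grew up under the same pastoral conditions, and they differed in the feed of their own dams from day 21 to day 50 of gestation. That feed was ad libitum for the HM group, maintenance for the MM group and sub-maintenance for the LM group, followed in each group by maintenance feed to day 140. Each of these 3 dam groups held 3 late pregnancy and 2 lactation pools. The labels give 3 ewes for a pool of late pregnancy and 2 for a pool of lactation, while the methods give 3 for every pool. Ewes were biopsied in both states, but which ewes entered which pool is not stated in the sources used here. A pool averages its ewes, so the spread given below is between pools and is not the spread between animals.

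Most cells take up iron as diferric transferrin (the product of TF) through the transferrin receptor (TFRC). Iron that is not used at once is stored inside ferritin, a shell built of heavy (FTH1) and light (FTL) subunits. Iron regulatory proteins, encoded by ACO1 and IREB2, bind iron responsive elements in mRNA when iron is scarce, which blocks the translation of ferritin mRNA and slows the decay of TFRC mRNA. Ferritin is therefore controlled to a large part at translation, and its mRNA level does not give the amount of protein. ACO1 with an iron-sulfur cluster is the cytosolic aconitase and does not bind these elements. Haem oxygenase 1 (HMOX1) frees iron from haem. The ferroxidases ceruloplasmin (CP) and hephaestin (HEPH) oxidise iron that leaves a cell through ferroportin (SLC40A1). The lactating gland takes up iron from the blood for its own enzymes and secretes some of it in milk.

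ACO1, TFRC and HMOX1 mRNA were higher in lactation than in late pregnancy, while FTH1, FTL, IREB2 and TF mRNA were not called different. ACO1 was 2.39-fold, TFRC 2.32-fold and HMOX1 1.63-fold higher, relative to the bulk of genes. CP was nearly absent in late pregnancy and, again relative to the bulk of genes, higher in each lactation library. The depth was 7597938 to 19823166 reads on genes per late pregnancy library, and 10352962 to 25679416 per lactation library. The share of milk protein genes in the counted reads was 13.7 to 23.4% before lambing and 71.3 to 75.8% after it. Levels are therefore given as CPM (exon reads divided by the library size, times 1000000) after TMM scaling, a method that sets the library size so that most genes do not shift between libraries. Without that scaling the median feature was 1.94 log2 units lower in lactation, and ACO1, TFRC and HMOX1 turned from higher to lower with it. They fell then by 0.64, 0.68 and 1.20 on the log2 scale, which is less than the median feature fell.

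Of the 9 genes, 8 passed the filter on low counts and were tested with the quasi-likelihood test of edgeR, and 3 of these 8 were called higher in lactation at an adjusted p under 0.05. Of all 13345 features tested, 68.4% were called, with 33.1% higher and 35.2% lower in lactation. None of the 8 was called lower, neither by edgeR nor by DESeq2 on the same reads. At an unadjusted p under 0.05 the 3 genes named above were also the only ones of the 8. The median log2 change was 0.06 over the 8 genes and -0.03 over all features tested. ACO1 and HMOX1, 2 of the 8, had no overlap of states, against 40.2% of all features tested. The share called among the iron genes was thus not above that of other features.

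**Figure D1:**
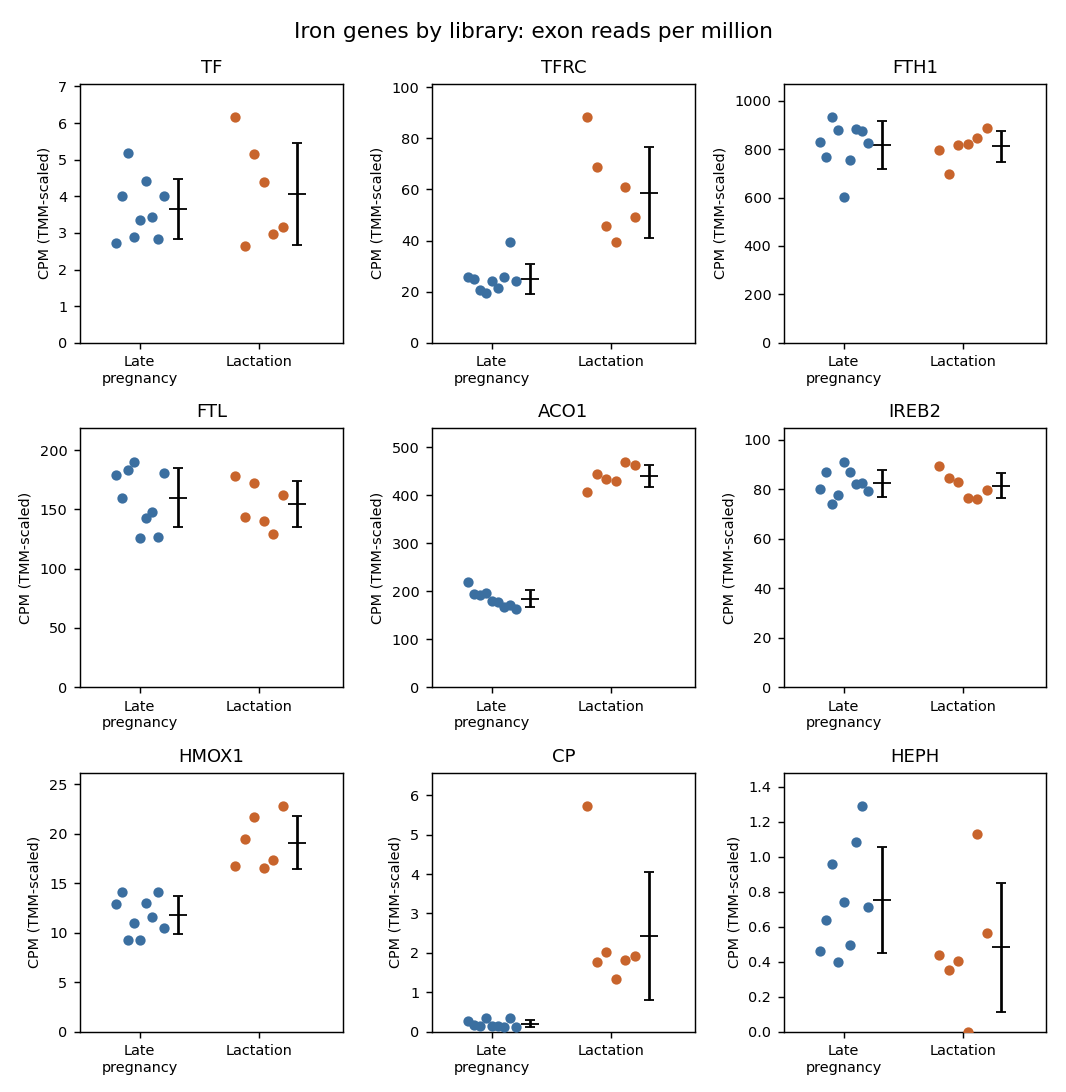
CPM after TMM scaling (linear axes from 0) of the 9 iron genes in each of the 9 late pregnancy (blue) and 6 lactation (orange) libraries, with the mean and SD in black. ACO1 rose from at most 220.3 CPM to at least 406 CPM and HMOX1 from at most 14.2 to at least 16.6 CPM, whereas against library size alone both fell. FTH1, FTL and IREB2 lay in the same range in both states.

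TF and TFRC are the carrier and its receptor. TF was a rare transcript in the biopsies, with 2.72 to 5.17 CPM in late pregnancy (median 3.43) and 2.64 to 6.15 CPM in lactation (median 3.77). The states overlapped, and the log2 change of 0.13 (SE 0.20) was not called (edgeR adjusted p = 0.56). The gene of the serum carrier thus had few reads in the gland in both states, 44 to 116 per late pregnancy library and 15 to 38 per lactation library.

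TFRC had 19.6 to 39.5 CPM in late pregnancy (median 24.3) and 39.4 to 88.1 CPM in lactation (median 55.0). The mean went from 25.1 ± 5.85 CPM (SD, n = 9) to 58.7 ± 17.9 CPM (SD, n = 6), with a log2 change of 1.22 (SE 0.16) by edgeR and an adjusted p of 9.9e-07. The ranges touched at 1 library, MM pool 2 of late pregnancy, whose 39.5 CPM lay just above the lowest lactation library, LM pool 2 with 39.4 CPM. The other 8 late pregnancy libraries reached at most 25.9 CPM. In lactation both HM pools were the highest, at 88.1 and 68.9 CPM. Both were sequenced on lane 7, where the 3 lactation libraries had a mean of 72.6 CPM, against 44.8 CPM for the 3 on lane 8. Dam group and lane cannot be told apart for this pattern. With any 1 library left out, the log2 change stayed between 1.08 and 1.32. TFRC is also known as a gene of dividing cells, and all 8 of the proliferation markers examined fell in lactation, from a summed 135.4 to 243.6 CPM in late pregnancy to 33.2 to 57.5 CPM. The receptor and those markers thus moved in opposite directions, and the part of dividing cells in the TFRC level was not tested.

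FTH1 and FTL encode the subunits of ferritin. FTH1 had 603 to 931 CPM in late pregnancy (median 829) and 698 to 887 CPM in lactation (median 821). The means were 817 ± 98.0 CPM (SD, n = 9) and 812 ± 63.3 CPM (SD, n = 6), and the log2 change of -0.01 (SE 0.08) was not called by edgeR (adjusted p = 0.92). FTL had 125.6 to 190.1 CPM in late pregnancy (median 159.9) and 129.1 to 178.2 CPM in lactation (median 152.9), with a log2 change of -0.05 (SE 0.10, edgeR adjusted p = 0.67). For both subunits the lactation libraries lay inside the range of late pregnancy. A p that misses the threshold does not show equal levels, and the standard errors give the size of change that these libraries could have hidden. Ferritin genes are known for near-identical processed copies in mammalian genomes, which were not looked at here. Only 47.2% of FTH1 exon reads and 7.38% of FTL exon reads were placed uniquely, against 100% for each of the other 7 genes. The levels of both subunits are therefore uncertain. Quantile normalization gives all libraries the same distribution. On quantile-normalized RPKM limma called FTH1 higher by 0.48 and FTL lower by 0.34 log2 units (adjusted p = 6.3e-06 and 0.0051), so their calls depended on the measure and test used. That setting changes the tool and the unit as well as the scaling, and which of these moved the calls was not tested.

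ACO1 and IREB2 encode iron regulatory proteins 1 and 2. ACO1 had 163.2 to 220.3 CPM in late pregnancy (median 179.8) and 406 to 470 CPM in lactation (median 439). The lowest lactation library was thus well above the highest of late pregnancy. The mean went from 184.7 ± 18.0 CPM (SD, n = 9) to 441 ± 23.2 CPM (SD, n = 6), a log2 change of 1.26 (SE 0.06) with an edgeR adjusted p of 7.5e-13. It had the smallest adjusted p of the 8 tested genes, and 93.5% of the tested features had a lower log2 change. IREB2 had 74.0 to 91.0 CPM in late pregnancy (median 82.0) and 76.0 to 89.2 CPM in lactation (median 81.2), with a log2 change of -0.02 (SE 0.05, edgeR adjusted p = 0.79). IREB2 had the smallest standard error of the 8 tested genes, and its lactation libraries lay inside the range of late pregnancy. It was called lower by 0.17 log2 units with upper quartile scaling, under which the median of all features was itself lower by 0.18. It was also called lower with limma on quantile-normalized RPKM, by 0.13 log2 units (adjusted p = 0.036), or -0.086 relative to the median feature. ACO1 is expressed by many cell types. The 8 luminal epithelial markers summed to 1659 to 2048 CPM in late pregnancy and 2412 to 2684 CPM in lactation, with 4 called higher and 2 lower. The 6 fibroblast markers went from a sum of 1311 to 2092 CPM to one of 618 to 998 CPM, with 5 called lower. In bulk tissue more cells of a type and more mRNA per cell cannot be told apart.

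HMOX1 encodes the inducible haem oxygenase, which opens the haem ring and releases iron. It had 9.26 to 14.2 CPM in late pregnancy (median 11.6) and 16.6 to 22.8 CPM in lactation (median 18.4). The states did not overlap, though the gap between them was narrow. The mean went from 11.8 ± 1.91 CPM (SD, n = 9) to 19.1 ± 2.68 CPM (SD, n = 6), a log2 change of 0.71 (SE 0.11) with an edgeR adjusted p of 1.0e-05. Macrophages are a known site of HMOX1. Of the 8 macrophage markers measured, 1 (CD14) was called higher and 5 lower, and their sum was 163.8 to 210.6 CPM in late pregnancy and 92.1 to 128.7 CPM in lactation. HMOX1 thus rose while the macrophage sum was lower, and the part of macrophages in its level was not tested.

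CP and HEPH encode the ferroxidases. CP had 0.13 to 0.36 CPM in late pregnancy (median 0.15) and 1.33 to 5.71 CPM in lactation (median 1.87). These values rest on 2 to 10 reads per library in late pregnancy, 40 in all, and on 7 to 26 reads per library in lactation, 96 in all. CP did not pass the filter, since its late pregnancy libraries and 1 lactation library were too low, and it was not tested with the other features. The ratio of the summed reads, taken per TMM-scaled library size, was 10.5. Its exact 95% counting interval, which covers counting error only, was 7.20 to 15.6. An exact permutation test of log2(CPM + 0.5), added after the values were seen, gave a difference of 1.93 and p = 0.0004 (two-sided), the smallest that the splits of 15 libraries into 9 and 6 allow. Against library size alone the difference was smaller, at 0.85 (exact permutation p = 0.0012). HM pool 1 of lactation stood far above the other lactation libraries at 5.71 CPM. Without that library the TMM-scaled difference was 1.69 (exact permutation p = 0.000999). Reads on introns made up 72.4% of the reads on the whole CP gene in late pregnancy and 32.9% in lactation. CP is also an acute phase gene of the liver. ALB, the gene of serum albumin, had a mean of 0.017 CPM in late pregnancy and 0.019 CPM in lactation. SERPINA1 and HP, which are acute phase genes too and were looked at after their values were seen, were also called higher in lactation. SERPINA1 had 2.26 to 6.13 CPM in late pregnancy and 6.28 to 21.1 CPM in lactation, a log2 change of 1.60 (edgeR adjusted p = 9.3e-06), though -0.28 and not called against library size alone. HP had 2.12 to 19.4 CPM in late pregnancy and 2.64 to 185.9 CPM in lactation, a log2 change of 2.53 (edgeR adjusted p = 0.0059). The highest lactation value of both was that of HM pool 1, the library highest in CP, and without it the log2 change was 1.36 for SERPINA1 (edgeR adjusted p = 2.5e-05) and 0.26 for HP (edgeR adjusted p = 0.66). HP was not called either with limma on quantile-normalized RPKM (adjusted p = 0.17). Nor was it called by edgeR against library size alone (log2 change 0.75, adjusted p = 0.34). With pools of the same dam group and number as blocks, the log2 change of HP was 1.28 (edgeR adjusted p = 0.19). Another acute phase gene, FGB, went the other way, with a log2 change of -0.57 that was not called (edgeR adjusted p = 0.080). LCN2, an acute phase gene that is in the uptake list below, rose by 3.52 (edgeR adjusted p = 4.6e-14). No full list of acute phase genes was examined. The part of an acute phase response in the CP level was not tested.

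HEPH had 0.40 to 1.29 CPM in late pregnancy (median 0.71) and 0 to 1.13 CPM in lactation (median 0.42). It had 139 reads in all in late pregnancy and 25 in lactation. The states overlapped, and the log2 change of -0.41 (SE 0.41) was not called by edgeR (adjusted p = 0.39). HEPH passed the filter through late pregnancy, where 8 of 9 libraries were past the limit of 0.718 CPM before TMM scaling, against 0 of 6 in lactation. LM pool 2 of lactation had no HEPH read, which allows up to 0.571 CPM at its depth. The estimate turned on 1 library, MM pool 1 of lactation with 13 of the 25 reads, and without it the log2 change was -0.97 (edgeR adjusted p = 0.077). HEPH is thus a gene of very few reads here, and no direction can be given for it at this depth.

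Ratios of 2 genes within a library do not depend on the scaling of libraries. Of 5 such ratios chosen for comparison, 4 differed between the states after adjustment over the 5. No share over other pairs of features was taken, while 68.4% of all features tested singly were called. The TFRC/FTH1, ACO1/IREB2 and TF/TFRC ratios each set a called gene against a gene not called. They thus largely restate the calls of TFRC and ACO1. The number of TFRC reads per FTH1 read was 0.022 to 0.045 in late pregnancy and 0.048 to 0.110 in lactation, with no overlap, and it was 2.31-fold higher in lactation (exact permutation p = 0.0004, the smallest possible; adjusted p = 0.000666). It carries the uncertain placing of FTH1 reads, and its call was the same on uniquely placed reads. The ACO1 to IREB2 ratio was 1.98 to 2.75 in late pregnancy and 4.55 to 6.18 in lactation, also with no overlap and 2.42-fold higher (exact permutation p = 0.0004, adjusted p = 0.000666). The balance of the mRNAs for both iron regulatory proteins thus moved toward ACO1 in every lactation library. The TF to TFRC ratio overlapped between the states and was 2.09-fold higher in late pregnancy (exact permutation p = 0.0052, adjusted p = 0.0065). The HEPH to CP ratio was 1.10 to 7.57 in late pregnancy and 0.067 to 0.628 in lactation (exact permutation p = 0.0004, adjusted p = 0.000666). This ratio rests on 0 to 26 reads of either gene in a library, with 0.5 added to each, and neither gene passed the filter in both states. It says nothing of HEPH alone, for which no direction was found. It crossed 1 with no overlap, so HEPH reads outnumbered CP reads in all late pregnancy libraries and CP reads outnumbered HEPH reads in all lactation libraries. The FTH1 to FTL ratio was 4.56 to 6.88 in late pregnancy and 4.48 to 6.54 in lactation. Its log2 difference of 0.04 did not pass (exact permutation p = 0.71). Only 47.2% of FTH1 and 7.38% of FTL exon reads were placed uniquely, so the size of this ratio depends on how the other reads were placed.

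**Figure D2:**
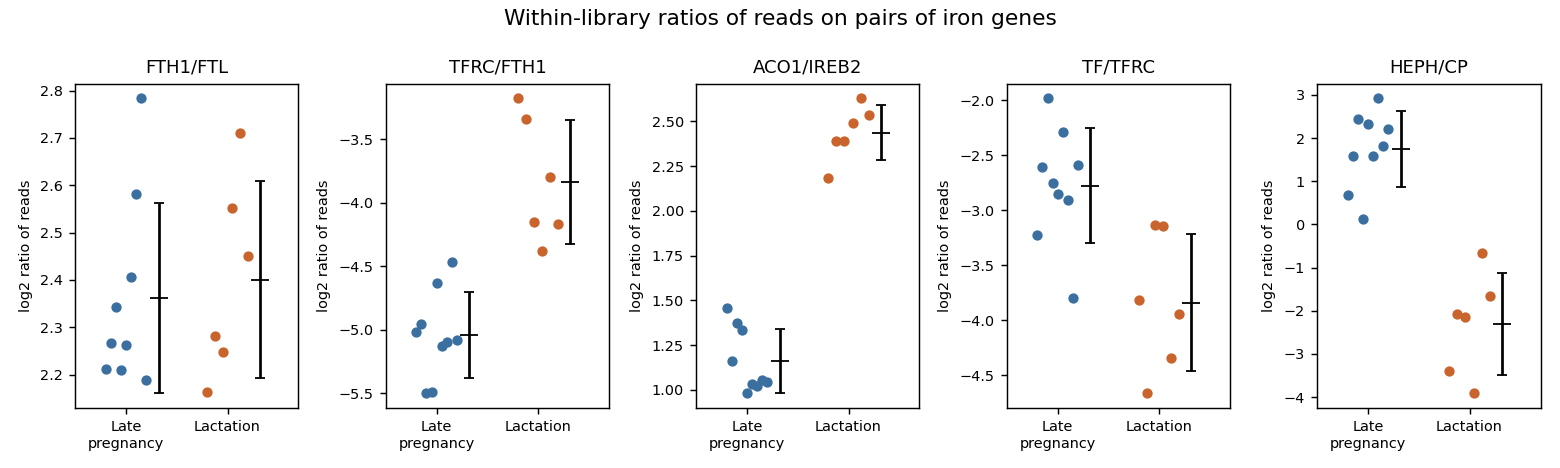
The log2 ratio of exon reads on 2 iron genes in each library (0.5 added to each count), in late pregnancy (blue, n = 9) and lactation (orange, n = 6), with the mean and SD in black. The TFRC/FTH1, ACO1/IREB2 and HEPH/CP ratios show no overlap of the states, and the FTH1/FTL ratio lies in 1 range.

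Exon reads come mostly from spliced mRNA and intron reads mostly from unspliced transcripts, and the deposited counts allow both to be taken for the same gene. Of the 9 genes, 4 had enough intron reads to be tested with edgeR, and ACO1 and HMOX1 were called higher in lactation on intron reads, against 58% of the 10344 features tested this way that were called in either direction. Intron reads of ACO1 rose by 0.91 on the log2 scale (SE 0.09, edgeR adjusted p = 1.0e-08) and those of HMOX1 by 1.38 (SE 0.22, edgeR adjusted p = 9.9e-06). Those of HMOX1 were few, with 11 to 30 per library in late pregnancy and 6 to 41 in lactation. MM pool 1 of lactation gave 41 of the 111 in lactation, and without it the rise was 1.17 (edgeR adjusted p = 0.00019). Intron reads of IREB2 changed by -0.14 (SE 0.13, edgeR adjusted p = 0.38). Intron reads of TFRC changed by -0.31 (SE 0.16, edgeR adjusted p = 0.098), which is opposite in sign to its change on exon reads. They were few, with 31 to 88 per library in late pregnancy and 6 to 33 in lactation. Without HM pool 2 of lactation the TFRC intron change was -0.41 and was called lower (edgeR adjusted p = 0.041).

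The difference between exon and intron reads was itself tested in these 4 genes, by a comparison added after the values were seen. For TFRC the exon reads per intron read were 6.42 to 12.8 in late pregnancy, against 16.5 to 61.8 in lactation. The states did not overlap, and the log2 difference was 1.50 (exact permutation p = 0.0004, the smallest possible; adjusted over the 4 genes p = 0.0016). The highest value, 61.8, was that of HM pool 1, which had 6 intron reads, and without any 1 library the difference stayed between 1.23 and 1.61. Among 9801 features tested on both kinds of reads, 99.2% had a lower exon change less intron change than the 1.53 of TFRC. ACO1 rose by slightly more on exon than on intron reads, by 0.27 log2 units, with overlap of the states (exact permutation adjusted p = 0.018). HMOX1 was the opposite, with 9.13 to 24.9 exon reads per intron read in late pregnancy and 4.81 to 11.8 in lactation, a log2 difference of -0.64 (exact permutation adjusted p = 0.018). For IREB2 the difference was -0.01 (exact permutation adjusted p = 0.93). The rise of TFRC was thus seen on exon reads and not on intron reads, whereas ACO1 and HMOX1 rose on both. Against library size alone, 1 of the 4 genes was called higher on intron reads and 2 lower, but the exon to intron ratios do not depend on scaling.

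**Figure D3:**
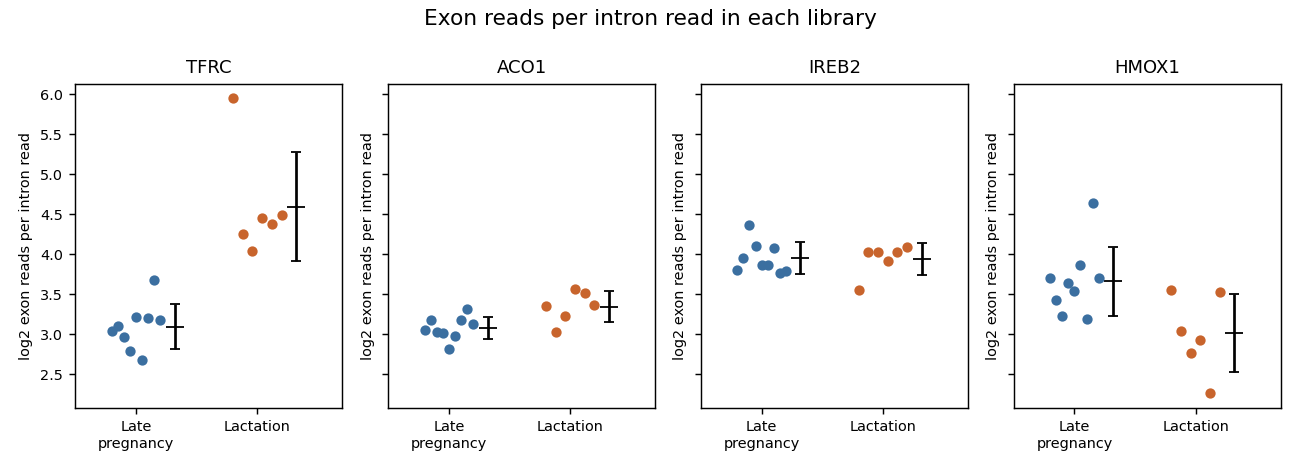
The log2 number of exon reads per intron read (0.5 added to each count) of 4 iron genes in each late pregnancy (blue, n = 9) and lactation (orange, n = 6) library, with the mean and SD in black. TFRC is higher in all lactation libraries, at 4.05 or more against 3.68 or less, while IREB2 lies in 1 range.

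Levels of different genes can be compared only per length, for which the TMM-scaled reads were divided by exon length (scaled RPKM). In late pregnancy the order of the mean levels was FTH1 (1376), FTL (180.2), ACO1 (53.5), IREB2 (13.9), HMOX1 (12.2), TFRC (9.19), TF (1.42), HEPH (0.20) and CP (0.060). The ranges of IREB2 and HMOX1 overlapped, as did those of HMOX1 and TFRC, and all other neighbours were apart. In lactation the order was FTH1 (1366), FTL (174.1), ACO1 (127.7), TFRC (21.5), HMOX1 (19.8), IREB2 (13.7), TF (1.59), CP (0.70) and HEPH (0.13). There the ranges of TFRC and HMOX1 overlapped and each was the higher in 3 of 6 libraries, and those of TF and CP also overlapped. TFRC and HMOX1 thus passed IREB2, which stayed at its level. With all placed reads counted, ferritin mRNA stood at the top of the order in both states. The uniquely placed share was 47.2% for FTH1 exon reads and 7.38% for FTL exon reads, against 100% for ACO1. The place of FTL above ACO1 thus depends on how its other reads were placed. No order was taken on uniquely placed reads alone. Both ferritin subunits together took 0.133 to 0.180% of the counted reads of late pregnancy libraries. For lactation libraries that share was 0.036 to 0.049%.

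The genes lie on separate chromosomes except for TF, TFRC and CP. In the coordinates of the deposited table these 3 are at chr1:253633394-253673044, chr1:188913436-188935549 and chr1:237003266-237050361. ACO1 is at chr2:100367446-100407458, HMOX1 at chr3:178680041-178687617, FTL at chr14:54576413-54577984, IREB2 at chr18:29884529-29934278, FTH1 at chr21:39885791-39886765 and HEPH at chrX:46194133-46330295. The build is version 3.2 of the sheep genome by the methods and Oar 3.1 by the submitters' processing notes. ACO1 has 2 annotated transcripts and each of the other 8 genes has 1, and the counts are summed over the exons of the gene.

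Of 84 other genes of iron metabolism listed by role, 80 were in the table and 72 were tested, with 27 called higher in lactation, 22 lower and 23 not called. That is near the background of 33.1% higher and 35.2% lower, and the median log2 change of the 72 was 0.02. Against library size alone the calls were 4 higher and 66 lower, so the directions that follow are relative to the bulk of genes. In the uptake list, 5 of 10 tested genes rose, 3 fell and 2 were not called. The largest rise was that of SLC39A8, a metal importer of the ZIP family that carries zinc, manganese and iron, from 52.3 ± 21.2 CPM (SD, n = 9) to 1580.1 ± 142.7 CPM (SD, n = 6), a log2 change of 4.92 (SE 0.20, edgeR adjusted p = 4.1e-14). The lowest lactation library had 1332 CPM and the highest of late pregnancy 89.1 CPM. SLC11A2, the DMT1 transporter that moves iron out of the endosome after TFRC uptake, rose by 0.77 (SE 0.09, edgeR adjusted p = 3.0e-07), but fell by 1.14 against library size alone. STEAP1, a metalloreductase homologue, fell most, by 2.72 (SE 0.11, edgeR adjusted p = 3.9e-14). STEAP4, a metalloreductase, had a log2 change of 0.13 (edgeR adjusted p = 0.43). LTF, the gene of lactoferrin, the iron-binding protein of milk, was not called (log2 change 0.73, SE 0.66, edgeR adjusted p = 0.33). It had 434.5 CPM in HM pool 1 of lactation and 5.27 to 51.7 CPM in the other 5, and without that library the log2 change was -0.94. The range in late pregnancy was 17.1 to 135.7 CPM, so LTF varied widely among pools of both states.

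Among genes of export and systemic control, 3 of 6 tested rose, 2 fell and 1 was not called. SLC40A1, ferroportin, fell from 31.8 ± 4.53 CPM (SD, n = 9) to 15.2 ± 2.48 CPM (SD, n = 6), a log2 change of -1.06 (SE 0.11, edgeR adjusted p = 4.5e-08), with no overlap. HFE, a regulator of iron sensing, fell most in this list, by 1.73 (SE 0.18, edgeR adjusted p = 3.4e-08). ATP7B, the copper pump that loads ceruloplasmin, rose most, by 1.35 (SE 0.16, edgeR adjusted p = 4.3e-07), and fell by 0.55 against library size alone. HAMP, the gene of hepcidin, the hormone that degrades ferroportin, had at most 0.18 CPM in any library and was not tested. The mRNA of the exporter was thus lower in every lactation library. Macrophages also make ferroportin, and their summed markers, given above for HMOX1, were lower in lactation too. The part of macrophages in the SLC40A1 level was not tested.

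Of the 7 tested genes of iron chaperones, ferritin turnover and control of the iron regulatory proteins, 4 rose, 2 fell and 1 was not called. NCOA4, the receptor that takes ferritin to the lysosome, rose most, by 0.58 (SE 0.06, edgeR adjusted p = 3.5e-08), from 166.6 ± 5.81 CPM (SD, n = 9) to 249.9 ± 28.8 CPM (SD, n = 6). FBXL5, the iron-sensing ubiquitin ligase subunit that removes IREB2 protein, fell most, by 0.27 (SE 0.06, edgeR adjusted p = 0.0005). Against library size alone NCOA4 fell by 1.32.

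All 8 genes of haem synthesis were tested and called, 2 higher and 6 lower, with a median log2 change of -0.45, where 68.4% of all tested features were called and 35.2% were lower. CPOX, which acts late in the pathway, fell most, by 1.08 (SE 0.08, edgeR adjusted p = 2.6e-10), and UROS rose most, by 0.64 (SE 0.13, edgeR adjusted p = 0.00017), but fell by 1.26 against library size alone. Of 8 genes of haem breakdown and transport 4 rose, 1 fell and 3 were not called. The call of HP, 1 of these 4, was lost without HM pool 1 of lactation, as given above. FLVCR2, a membrane transporter first described as a haem importer and later as a choline transporter, rose from 0.45 to 2.29 CPM in late pregnancy to 27.6 to 48.5 CPM in lactation, a log2 change of 4.80 (SE 0.20, edgeR adjusted p = 5.7e-14). SLC48A1, which carries haem out of the lysosome, was the 1 that fell, by 1.19 (SE 0.13, edgeR adjusted p = 6.3e-08). Among 4 tested regulators of HMOX1, 1 rose and 2 fell. BACH1, the haem-sensing repressor of HMOX1, rose by 1.12 (SE 0.10, edgeR adjusted p = 2.3e-09), and fell by 0.79 against library size alone. NFE2L2, its activator, fell by 0.22 (SE 0.05, edgeR adjusted p = 0.00084). The repressor mRNA thus rose and the activator mRNA fell while HMOX1 rose. Of 26 genes of iron-sulfur clusters and mitochondrial iron, 7 rose, 6 fell and 13 were not called. ISCU, the cluster scaffold, rose most, by 0.42 (SE 0.09, edgeR adjusted p = 0.00044), but fell by 1.49 against library size alone. SLC25A28, mitoferrin 2, fell most, by 0.58 (SE 0.08, edgeR adjusted p = 1.8e-06).

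**Figure D4:**
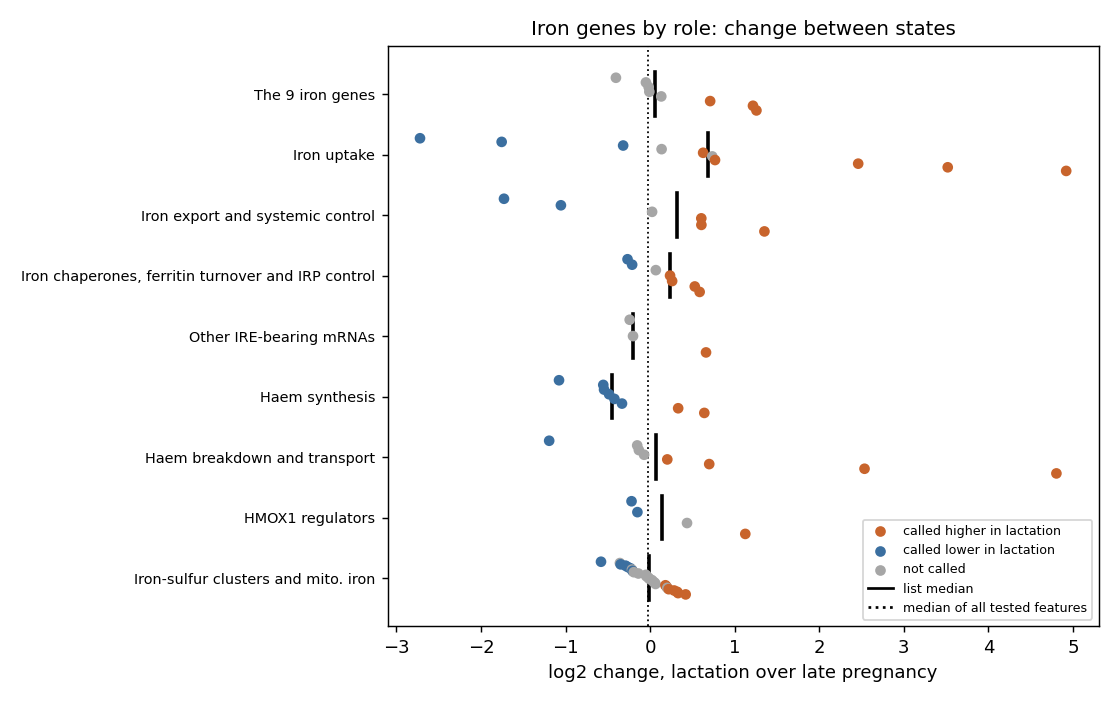
The edgeR log2 change from late pregnancy to lactation (TMM scaling) of each tested gene, 1 point a gene, by list, with the list median as a bar and the median of all tested features (-0.03) dotted. Haem synthesis has 6 of 8 genes lower, where 35.2% of all tested features are, and the uptake list holds the largest rise, SLC39A8, but against library size alone 66 of the 72 other iron genes would be called lower.

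Erythroid and liver RNA were looked for, since both tissues are rich in iron genes. The 4 erythroid markers found summed to at most 1.90 CPM in any late pregnancy library and 0.53 CPM in any lactation library, with ALAS2 and HBM at 0 in lactation, and none was tested. The 6 hepatocyte markers summed to 7.11 to 19.9 CPM in late pregnancy and 9.90 to 23.7 CPM in lactation, with 1 called higher, 2 lower and 2 not tested. Milk protein and luminal genes were high in both states, as the label of mammary parenchyma gives. Endothelial markers summed to 207.9 to 282.9 CPM in late pregnancy and 144.5 to 203.7 CPM in lactation, with 5 of 6 lower. Myoepithelial markers (677 to 760 and 665 to 997 CPM) had 4 of 8 higher and 2 lower, and of the 6 adipocyte markers 4 were tested and 0 called (223 to 428 and 303 to 394 CPM).

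The feed of the ewes' dams was compared over the 9 late pregnancy libraries. Of 13747 features tested with edgeR 0 were called, or 0%, with 571 at an unadjusted p under 0.05, and DESeq2 called 20, none of them among the 9 genes. Scaled over these libraries alone, ACO1 had 324 to 375 CPM in the HM group, 302 to 334 CPM in LM and 276 to 291 CPM in MM. The MM range lay below the other 2, with an unadjusted p of 0.017 and an adjusted p of 1.00 in edgeR. TFRC was highest in MM, at 41.1 to 67.1 CPM, against 34.8 to 43.5 CPM in HM and 33.3 to 41.2 CPM in LM (unadjusted p = 0.042, adjusted p = 1.00 in edgeR), with 1 MM library at 67.1. No other gene of the 9 had an unadjusted p under 0.05. These differences did not pass adjustment. All LM libraries were sequenced on lane 8, and the HM and MM libraries on lanes 7 and 8, so dam group and lane are partly confounded.

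Whether the change between states differed by dam group was tested as an interaction over the 15 libraries, and edgeR called 0 of 13345 features, or 0%, with 876 at an unadjusted p under 0.05, while DESeq2 called 19, none of them among the 9 genes. By the mean log2(CPM + 0.5) of each group and state, TFRC was higher in lactation by 1.71 in HM, 0.90 in MM and 0.95 in LM. Its interaction had an unadjusted p of 0.011 and an adjusted p of 0.74 in edgeR. On the same scale ACO1 was higher by 1.07 in HM, 1.48 in MM and 1.22 in LM (unadjusted p = 0.016, adjusted p = 0.74 in edgeR). Both genes thus rose in each dam group by these estimates, and the differences between groups did not pass adjustment. Both HM lactation pools were on lane 7 and both LM lactation pools on lane 8, so lane and dam group cannot be told apart between them.

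Genes that varied most like each member among libraries of the same state were found by Pearson's r of log2(CPM + 1), after each state's mean was taken out, over 15 libraries and 6391 or 6392 features of at least 10 CPM. The best of all these features are listed, so high values are given as a description. ACO1 was most like CSN1S2 (r = 0.86), the alpha-S2-casein gene, and SYTL2 (r = 0.84). TFRC was most like IWS1 (r = 0.87) and PRPF38A (r = 0.86), and HMOX1 most like RRAGD (r = 0.83) and ZNF777 (r = 0.82). FTH1 was most like APRT (r = 0.86) and ARAF (r = 0.84). FTL was most like C23H18orf21 (r = 0.88) and DCTN2 (r = 0.83). IREB2 was most like WWC3 (r = 0.85) and TAB3 (r = 0.85), TF most like SNX14 (r = 0.82) and SMIM7 (r = 0.76), and HEPH most like NUP35 (r = 0.87) and PXDN (r = 0.85). Among pairs of the members themselves the value farthest from 0 was that of FTH1 and IREB2 (r = -0.74). These points share library depth and composition, and no test was made of them.

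**Figure D5:**
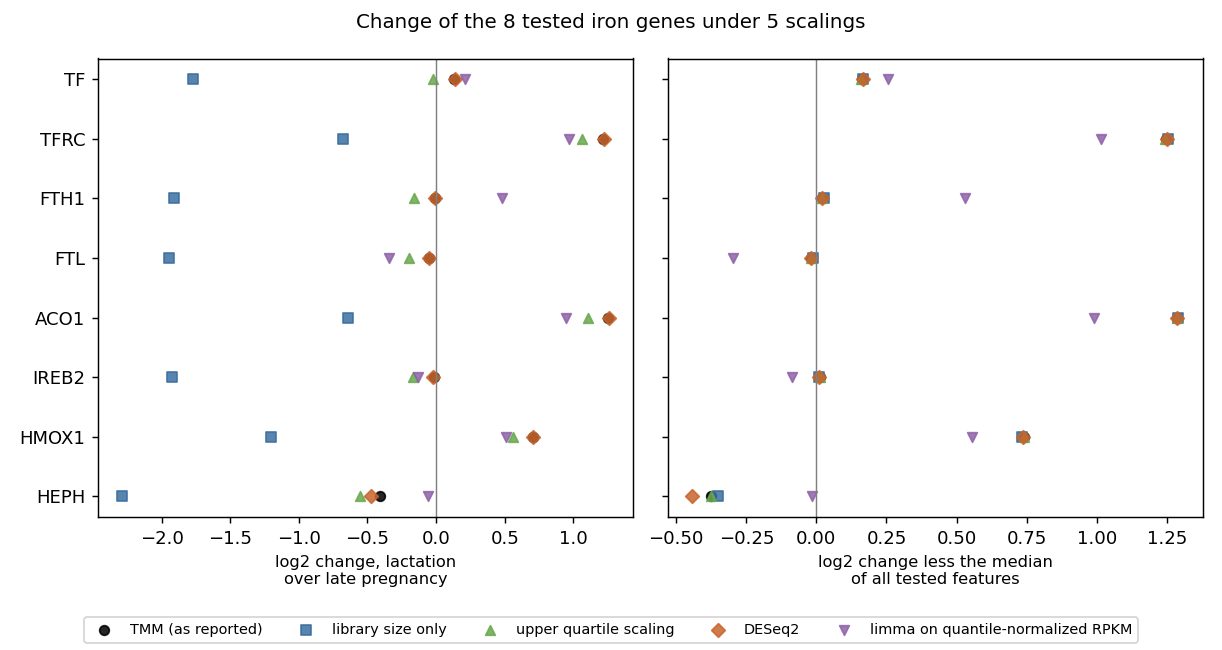
The log2 change from late pregnancy to lactation of the 8 tested iron genes under 5 scalings or tools, as estimated (left) and less the median of all tested features (right). ACO1, TFRC and HMOX1 are below 0 on the left with library size alone, where the median feature is at -1.94, and above the median feature in each case on the right. FTH1 lies near 0 on the right except on quantile-normalized RPKM, at 0.53.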

How the data were processed

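The authors mapped paired HiSeq reads of 15 libraries to the sheep genome in CLC Genomics Workbench and deposited 1 table. Its counts, deposited without normalization, are reads on exons and reads on the entire gene, each as a total and as uniquely placed reads. The deposited RPKM are reads scaled by exon length and library size, and the authors then quantile-normalized them over the 15 libraries. Recomputed RPKM differed from the deposited ones by at most 3.5e-07 of their value. The authors' own fold changes and p-values were not used.

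Exon reads, or whole gene reads for 5583 features with no annotated transcript, were tested with edgeR 4.0.16 in R 4.3.3, with filterByExpr by state, TMM scaling and a quasi-likelihood test of lactation against late pregnancy on all 15 libraries without covariates. A call is a p under 0.05 after Benjamini-Hochberg adjustment over all features tested. Intron reads are whole gene less exon reads. DESeq2 1.42.0 and limma 3.58.1 (on log2 of quantile-normalized RPKM + 1) were alternatives. Ratios were compared by exact two-sided permutation of the state labels, with adjustment over 5 ratios or 4 genes. P-values measure the spread between pools. The state fits of edgeR, DESeq2 and limma, the dam feed test of edgeR and the permutation test were tested on simulated data. Scans of all pairs of libraries found no duplicates. The 9 genes and the lists were chosen with earlier results of these data known. Named genes are the 9, those in each list with the largest called rise and fall at 1 CPM or more, and 9 others set by role. A gene that the rule names is not reported here. Counts carry no molecular identifiers, so intervals cover counting error only. Lane was used only as a covariate in an alternative.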

Additional observations from a re-analysis of the deposited data

Results flagged for a closer look

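In 36 groups of libraries (9 genes, 5 ratios and 4 exon to intron values in each state) a library stood far from the rest of its group 5 times. Chance alone gives about 1 in 20 groups. MM pool 2 of late pregnancy had 39.5 CPM of TFRC, where the next highest had 25.9 CPM. The same library had the highest log2 number of exon reads per intron read of HMOX1 in late pregnancy, 4.64 against 3.87 for the next. HM pool 1 of lactation had 5.71 CPM of CP, where the next highest had 2.03 CPM. That library also had the highest log2 exon to intron value of TFRC in lactation, 5.95 against 4.49 for the next, and the lowest of IREB2, 3.56 against 3.92 for the next. Without MM pool 2 of late pregnancy the log2 change of TFRC was 1.32 and the log2 exon to intron difference of HMOX1 was -0.52. Without HM pool 1 of lactation the difference of CP was 1.69 on the log2(CPM + 0.5) scale, and the exon to intron differences were 1.23 for TFRC and 0.066 for IREB2. Neither library's own history, such as the health of its ewes, is given in the sources used here.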

How the results depend on the processing

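The calls of ACO1, TFRC and HMOX1 as higher kept their direction and their side of the threshold in each setting tried except library size alone. There 0 of the 8 genes were called higher and 8 lower, the other iron genes 4 higher and 66 lower, and the intron reads 1 higher and 2 lower. The log2 changes were -1.77 for TF, -0.68 for TFRC, -0.64 for ACO1, -1.20 for HMOX1, -1.14 for SLC11A2, -1.32 for NCOA4, -1.08 for LTF, -1.77 for STEAP4, -0.79 for BACH1, -0.55 for ATP7B, -1.26 for UROS and -1.49 for ISCU, all beside a median feature at -1.94. Of its calls 97.3% were lower, against 51.6% with TMM and 63.7% with upper quartile scaling. With upper quartile scaling 1 of the 8 genes (IREB2) was called lower and TF was at -0.019. With limma on quantile-normalized RPKM 2 (FTL and IREB2) were called lower and FTH1 was at 0.48. Uniquely placed reads gave FTH1 0.052. CP was tested only on whole gene reads (2.15), with no filter (3.36) and without LM pool 2 of lactation (3.51), and was called higher each time, which gives 3 to 4 genes called higher with 1 library left out. On exon reads 0 of 9 late pregnancy and 5 of 6 lactation libraries were past the filter limit for CP. Without LM pool 2 it thus passed through lactation alone, and that call is no further support. Pools with the same number were checked for pairing. Over 6 pairs the correlation of their deviations was -0.045 to 0.12, and 1 of 6 lactation libraries correlated best with its own number. The check thus gave no sign of pairing by number. It cannot exclude pairing, since pools that share ewes need not correlate between the states. With a replicate block 8464 features were called in place of 9122, FTH1 was at 0.016, FTL at 0.0015 and LTF at -0.17, and 3 of the 8 genes were called. For dam feed, DESeq2 called 20 features and for the interaction 19. With 1 library left out, the change was -0.056 to 0.030 for FTH1, -0.044 to 0.0026 for IREB2 and -0.94 to 1.01 for LTF, the log2 FTH1 to FTL ratio differed by -0.023 to 0.092, and the IREB2 exon to intron value by -0.040 to 0.066. Intron reads then gave 0 to 1 gene called lower, dam feed 0 to 1 feature and the interaction 0 to 10. The HEPH to CP ratio could not be formed with no pseudocount, since 1 library had no HEPH read. With 10 reads asked of every library 7216 of 10079 features were called, and CP and HEPH were not tested.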
